A study of Mus musculus with 6 samples.

Results

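The genes described here are those whose symbols name voltage-gated, TRP, HCN and chloride ion channels, found by their symbols alone: Kcn (potassium channels), Scn (sodium channels), Cacna, Cacnb and Cacng (calcium channels), Trpa, Trpc, Trpm and Trpv (transient receptor potential, TRP), Hcn (hyperpolarization-activated), Clcn (chloride channels and exchangers of the ClC family) and Ano (anoctamins). The pattern matched 184 of the 46603 gene identifiers in the deposited counts. Of these, 177 were channel subunits, and 7 carried a matching symbol without being one (Kcnq1ot1, Trpc4ap, Kcnab3os, Kcnd3os, Kcnmb4os1, Kcnmb4os2 and Trpc5os). In all, 109 genes had enough counts to be tested, 107 of them channel subunits. A further 62 had counts too low for the test, and 13 had no count in any library.

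The counts came from poly(A) RNA of neurosphere-derived enteric glial cells (EGCs; enteric glia support the neurons of the intestine), grown from E14.5 C57BL/6J mouse intestine. There were 3 control libraries and 3 libraries of EGCs given lipopolysaccharide (LPS, a component of the outer membrane of gram-negative bacteria) at 100 ng/ml for 12 h. Both groups shared strain, age and culture, and the labels gave no further allele or agent. The study used these libraries to look for EGC factors that could act on monocytes, and the comparison of LPS with control shows which channel transcripts differed after activation.

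Ion channels are membrane proteins that let selected ions pass when a gate opens. Voltage-gated potassium (Kv), sodium (Nav) and calcium (Cav) channels open on a change of membrane potential and consist of pore-forming subunits with auxiliary ones. Inward rectifier (Kir) and 2-pore-domain (K2P) potassium channels set the resting potential, TRP channels are mostly nonselective cation channels, HCN channels carry a pacemaker current, and ClC proteins and anoctamins conduct or exchange chloride, with some anoctamins moving lipids instead. Glia are known for the uptake of potassium through Kir channels, of which Kcnj10 (Kir4.1) is the best known in the brain. In the gut wall, Ano1 is a defining channel of interstitial cells of Cajal, the pacemaker cells of gut muscle.

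Libraries held 18775316 to 23664312 counts, and 3 counts, taken as the detection floor, corresponded to 0.124 to 0.167 CPM (counts divided by the corrected library size in units of 1e+06). The cultures were mixed by their markers. Of 10 glial markers, 9 were testable, with sums of 444 to 636 CPM in control and 483 to 492 CPM in LPS, and S100b and Cdh19 fell. All 12 macrophage markers were testable, and their sum was 4139, 5347 and 12482 CPM in control replicates 1, 2 and 3 and 3995, 5175 and 19443 CPM in LPS replicates 1, 2 and 3, so both libraries numbered 3 stood apart. Smooth muscle markers summed to 2290 to 2523 CPM in control and 640 to 911 CPM in LPS, and the 7 testable ones of 8 all fell. Neuron markers (8 of 8 testable) summed to 524, 512 and 282 CPM in control and 472, 499 and 301 CPM in LPS, and markers of interstitial cells (3 of 3 testable) to 203, 204 and 68.2 CPM in control and 87.0, 78.4 and 50.5 CPM in LPS, sums that include Ano1, itself a channel gene. Mesenchymal markers (6 of 6 testable) summed to 7717 to 8506 CPM in control and 8351 to 8844 CPM in LPS, endothelial markers (3 of 4) to 10.9 to 17.7 and 8.05 to 20.7 CPM, and epithelial markers (2 of 5) to at most 9.84 CPM. What these shares contributed to the channel results was not tested, and in bulk RNA fewer cells of a type and less RNA per cell cannot be told apart.

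First, the levels in control EGCs were ordered per kilobase of exon. The most abundant were ClC exchangers of endosomes and lysosomes, the Cav subunit Cacnb3, Cacng7, Ano6 and Trpm7. Clcn7, the chloride-proton exchanger of lysosomes, was first with 31.0 ± 3.90 CPM per kb (SD, n = 3), and its range did not overlap that of any gene named after it. Trpc4ap, an adaptor protein and no channel, stood at 18.4 ± 0.322 CPM per kb, and Ano6, a calcium-activated lipid scramblase, at 17.2 ± 0.326 CPM per kb (SD, n = 3).

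From Ano6 downward, the range of each of the first 10 genes over the control libraries overlapped that of the next, although genes further apart could be separate, as Ano6 was from Trpm7 in every control library. They were Cacnb3 (a Cav beta subunit) at 15.4, Cacng7 (a gamma-type subunit, better known as a partner of AMPA receptors) at 15.03, Trpm7 (a cation channel fused to a kinase) at 14.4, Clcn4-2 (the mouse symbol for the exchanger Clcn4) at 13.5, Clcn5 (an endosomal exchanger) at 12.0 and Ano10 at 11.9 CPM per kb. Of the 10 genes leading in the mean, each single control library kept 8 or 9. Without division by exon length 8 remained, and Ano6 came first with 211 CPM, with control libraries between 207 and 215 CPM.

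In order of the mean, Ano1, Kcna1, Trpv2 and Kcna6 came next, each with a range that overlapped the next. Trpv2 stood at 9.86 ± 3.66 CPM per kb (SD, n = 3). Kcna1 (Kv1.1) stood at 9.89 ± 1.80 CPM per kb and Kcna6 (Kv1.6) at 9.69 ± 1.43 CPM per kb (SD, n = 3). Ano1 had a mean of 10.0 CPM per kb, but with an SD of 6.45, since control replicate 3 lay at 2.63 CPM per kb against 14.6 and 12.8 CPM per kb in control replicates 1 and 2. In CPM, 6 tested genes exceeded 100 in control, 36 lay between 10 and 100, and 67 were below 10. Their median control level was 5.41 CPM, against 21.4 CPM for all genes tested.

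**Figure D1:**
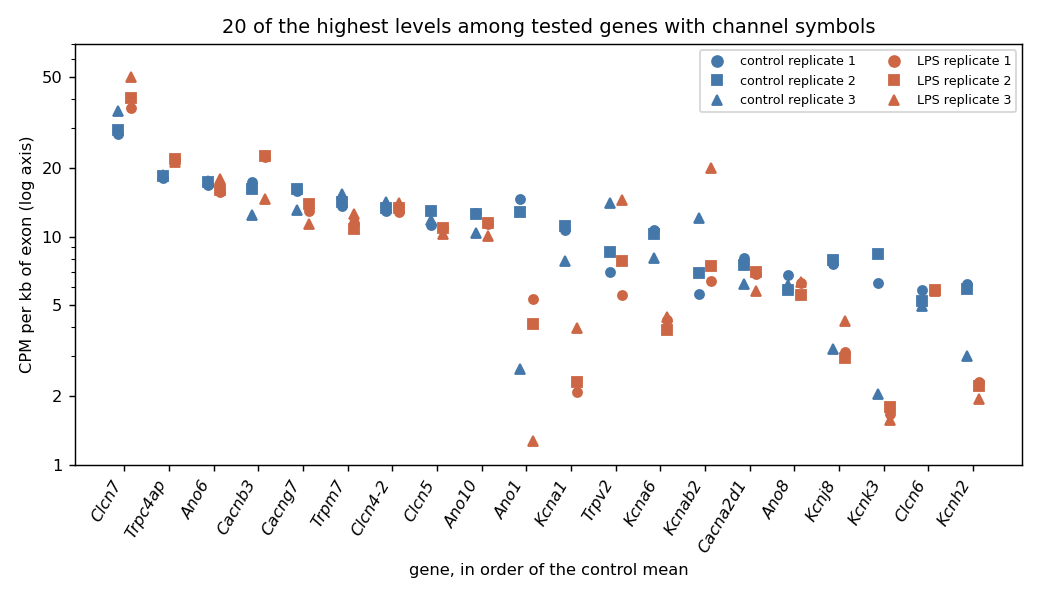
Levels in CPM per kilobase of exon (log axis) of 20 tested genes with channel symbols, in order of the control mean and among the highest by it. Each symbol is 1 library: control in blue, LPS in orange, with circle, square and triangle for replicates 1, 2 and 3. Clcn7 lies highest of these in every library, and Kcna1 and Kcna6 have their 3 LPS libraries below their 3 control libraries.

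Next, LPS and control EGCs were compared. Among the 109 tested genes, 10 fell and 1 rose (quasi-likelihood test of edgeR, adjusted p under 0.05 over all 15226 genes tested). The falls comprised Kcna1, Kcna2, Kcna6, Kcnd3, Kcnh2, Kcnk5, Kcnmb2, Cacnb4, Cacna1a and Scn7a, and the rise was Kcne4. Thus 9.17% of the genes fell, against 6.71% of all genes tested, and 0.917% rose, against 9.09% of all genes tested. At an unadjusted p under 0.05 there were 29 (26.6%, against 32.1% of all genes tested). The groups did not overlap in any of the 11 called genes. Any pairing of the libraries would thus give the direction of the call in all 3 pairs. Nothing in the labels says that the libraries came from separate cultures, so the p-values measure the spread between these libraries, which may be technical.

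The fold changes lay on the negative side as a group. A negative log2 fold change was found in 76 of the 109 genes (69.7%), against 52.0% of all genes tested. The median log2 fold change was -0.27, against -0.02 for all genes. With upper-quartile factors these medians were -0.38 and -0.12, and with library size alone -0.43 and -0.18, so that the group stayed below the median of all genes. Leaving out single libraries moved the group median toward 0, to -0.08 without control replicate 1, -0.15 without control replicate 2 and -0.14 without LPS replicate 3, and the 3 other libraries left it between -0.34 and -0.27. The LPS libraries lay entirely below the control libraries in 25 of the 109 genes and entirely above in 5, where 19.4% and 19.3% of all genes tested did so.

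By class, 5 of the 24 tested pore-forming Kv genes fell and none rose, with a median log2 fold change of -0.15. Of all genes tested, 6.71% fell and 9.09% rose. Among 9 potassium channel auxiliary genes, 1 rose and 1 fell. Of 6 K2P genes, 8 Nav pore genes, 7 Cav pore genes and 4 Cav beta genes, 1 of each fell. No gene was called among 8 Kir genes, 7 calcium- or sodium-activated potassium channels, 3 Nav beta, 2 alpha2delta and 3 gamma subunits, 4 TRPC, 4 TRPM, 2 TRPV, 1 TRPA, 3 HCN, 6 ClC and 6 anoctamin genes. Of these 49 genes, 8 had an unadjusted p under 0.05 in edgeR, and DESeq2 called 5, limma-voom 0 and the replicate block 10. Of all genes tested, 32.1% had such a p. DESeq2 called 13.7% of all genes higher and 11.0% lower, limma-voom 8.21% and 6.05%, and the replicate block 15.4% and 14.9%. All 6 anoctamins had a negative log2 fold change, from -1.49 to -0.05, which also held for the 3 Nav beta and the 2 tested alpha2delta genes. The lowest class medians were those of Cav beta (-0.76), K2P (-0.72) and Cav pore genes (-0.71). The medians of ClC (-0.00) and TRPM (0.00) changed sign with the scaling of the libraries, from 0.01 to -0.16 and from 0.02 to -0.15.

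**Figure D2:**
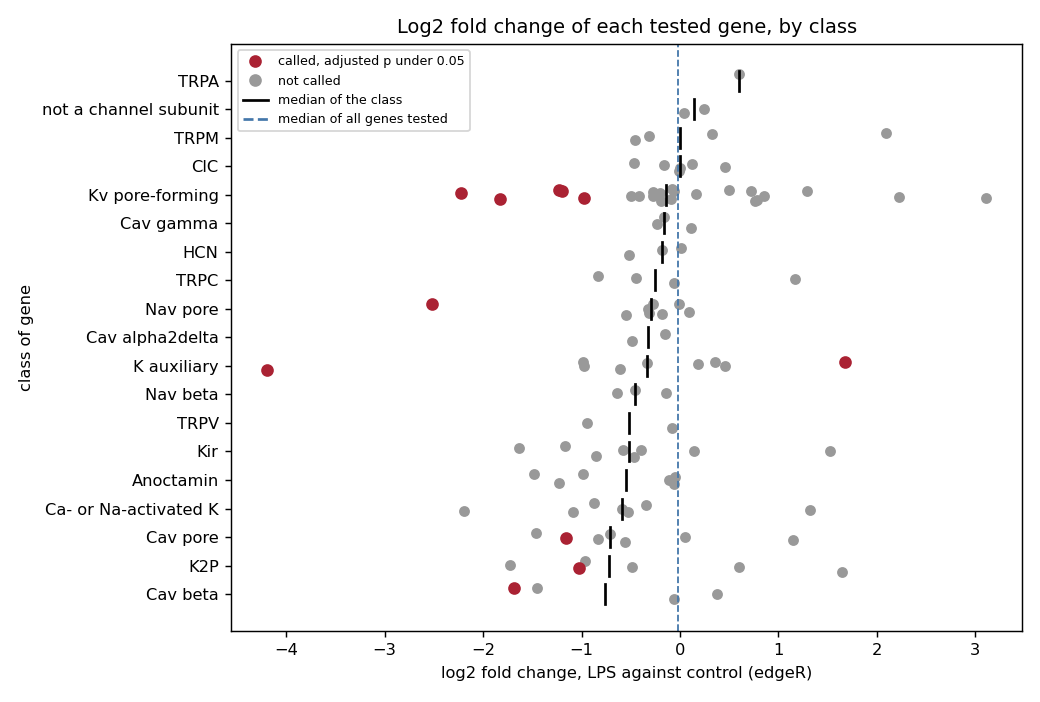
Log2 fold change of LPS against control for each of the 109 tested genes, by class; positive values are higher in LPS. Red points were called, grey points were not, black ticks mark class medians and the dashed line the median of all genes tested (-0.02); 10 of the 11 red points lie to the left of that line and 1, Kcne4, to its right.

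Of the 10 falls, 5 were in pore-forming Kv genes, and 3 of these were members of the Kv1 (Kcna) family, the low-threshold potassium channels that limit repetitive firing in nerve. Kcna2 (Kv1.2) fell from 50.2, 52.6 and 25.9 CPM in control replicates 1, 2 and 3 to 7.31, 9.08 and 11.2 CPM in LPS. Kcna1 fell from 51.3, 53.1 and 37.4 CPM to 9.98, 11.0 and 19.1 CPM, and Kcna6 from 63.7, 61.2 and 47.9 CPM to 25.7, 23.1 and 26.4 CPM. In each of these genes the LPS libraries lay entirely below the control libraries.

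The log2 fold change was -2.22 (SE 0.32, adjusted p = 0.0110) for Kcna2, -1.82 (SE 0.29, adjusted p = 0.0144) for Kcna1 and -1.20 (SE 0.13, adjusted p = 0.00455) for Kcna6. Kcna6 kept its call in each of 15 alternative fits, with adjusted p-values between 5.41e-12 and 0.0329. Kcna2 lost it without control replicate 2 or LPS replicate 2 (adjusted p up to 0.0591; over all alternatives 3.09e-09 to 0.0591). Kcna1 lost it without control replicate 1 or 2 or LPS replicate 1 or 2 (up to 0.0729; over all alternatives 2.48e-07 to 0.0729). The antisense gene Gm26673 overlaps 39.6% of the exon bases of Kcna6, but its own counts came to 0.0827 to 0.443 CPM in control. Of the 50-base words of the Kcna6 exons, 38.8% also occurred in another gene, mainly this one, and without a stated strand setting reads of this pair cannot be told apart.

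The called Kcna genes lie in a pair of clusters in GRCm38. Kcna1 (chr6:126640397-126646384, minus strand) and Kcna6 (chr6:126708329-126740674, minus strand) neighbour Kcna5 (chr6:126532551-126535412), while Kcna2 (chr3:107101146-107115005, plus strand) neighbours Kcna3 (chr3:107036169-107038070). Neither Kcna5 nor Kcna3 was called, and both had positive log2 fold changes. Kcna3, known from T cells and macrophages, stood at 0.678, 0.753 and 1.57 CPM in control and 1.19, 1.73 and 4.45 CPM in LPS, and its log2 fold change, 1.29, missed the threshold (adjusted p = 0.209) except with the replicate block (0.0255) and without both libraries numbered 3 (0.0455; over all alternatives 0.0255 to 0.460). Kcna5 averaged 0.796 ± 0.0936 CPM (control) and 1.37 ± 1.13 CPM (LPS; SD, n = 3) and was not called.

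Promoters of Kcna2 and Kcna6 are shown, since Kcna2 had the largest fall among the Kv genes and Kcna6 kept its call in every fit. They come from RefSeq (GRCm38.p6) and run 5′ to 3′ from 250 bases before to 50 bases after the start. RefSeq promoters matched 138 of the 184 genes and 9 of the 11 called genes. Neither of the windows below held any of the 6 motifs searched on both strands, so no letters are in capitals. The motifs were the NF-κB motif by its name, the ISRE core (a pair of GAAA words with 2 bases between them), the GAS motif TTCNNNGAA, the AP-1 motif TGANTCA, the CRE TGACGTCA and the E-box CACGTG, which occurred in 8.46%, 3.44%, 8.30%, 7.81%, 1.79% and 7.15% of 32851 promoters of the same length. Kcna2 covers chr3:107101317-107101616 (plus strand) and Kcna6 chr6:126740625-126740924 (minus strand).
Kcna2: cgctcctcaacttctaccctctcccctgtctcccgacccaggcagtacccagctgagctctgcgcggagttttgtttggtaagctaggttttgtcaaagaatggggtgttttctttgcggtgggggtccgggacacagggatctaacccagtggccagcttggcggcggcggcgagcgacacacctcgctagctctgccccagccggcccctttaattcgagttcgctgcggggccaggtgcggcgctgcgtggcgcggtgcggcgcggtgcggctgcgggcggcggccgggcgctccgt
Kcna6: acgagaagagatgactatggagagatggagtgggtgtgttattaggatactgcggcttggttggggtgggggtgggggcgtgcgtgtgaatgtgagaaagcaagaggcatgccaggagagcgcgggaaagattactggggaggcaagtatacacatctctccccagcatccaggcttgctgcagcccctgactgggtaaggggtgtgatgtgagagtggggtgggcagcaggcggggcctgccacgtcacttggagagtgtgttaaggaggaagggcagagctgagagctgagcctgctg

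**Figure D3:**
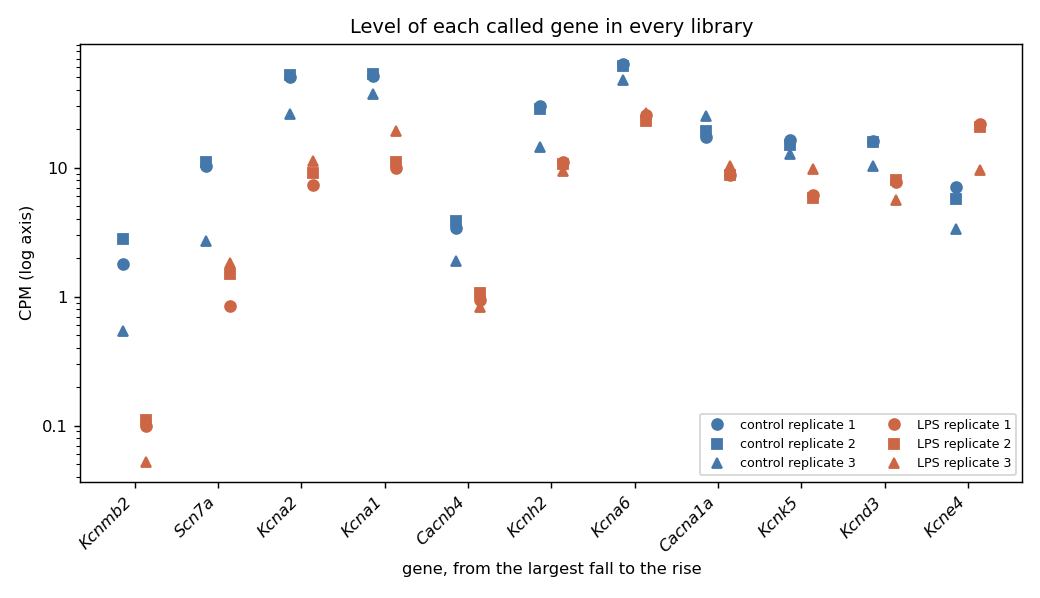
CPM (log axis) of the 11 called genes in every library, ordered from the largest fall to the rise; blue symbols are control, orange symbols LPS, and circle, square and triangle are replicates 1, 2 and 3. The orange symbols lie below the blue ones in the 10 genes that fell, with Kcnmb2 between 0.0523 and 0.111 CPM in LPS, and above them in Kcne4.

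The other 2 Kv genes that fell carry currents of repolarization. Kcnd3 (Kv4.3), which carries a rapidly inactivating A-type current, fell from 16.0, 15.8 and 10.3 CPM to 7.71, 8.08 and 5.65 CPM (log2 fold change -0.98, SE 0.23, adjusted p = 0.0428). Kcnh2, the ERG channel of delayed repolarization, fell from 30.1, 28.6 and 14.46 CPM to 11.1, 10.7 and 9.42 CPM (-1.23, SE 0.29, adjusted p = 0.0414). Both lost their calls with limma-voom (adjusted p = 0.0612 and 0.0886) and without control replicate 1 or 2 or LPS replicate 1, 2 or 3 (up to 0.160 and 0.150; over all alternatives 0.000609 to 0.160 and 5.17e-05 to 0.150). Kcnd3 lies at chr3:105452330-105674002 (plus strand) and Kcnh2 at chr5:24319589-24351604 (minus strand). Both ranges were apart between the groups.

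Among the auxiliary subunits the called genes went in opposite directions. Kcne4, a single-pass subunit that inhibits several Kv channels, rose from 7.12, 5.75 and 3.35 CPM to 21.6, 20.7 and 9.53 CPM. Its log2 fold change was 1.68 (SE 0.41, adjusted p = 0.0462), with LPS over control at 3.04-, 3.60- and 2.85-fold in the 3 pairs. It was the single channel gene called higher, and the call was lost without control replicate 1, 2 or 3 or LPS replicate 1 or 2 (adjusted p up to 0.152). It was also lost with upper-quartile factors (0.0586), library size alone (0.0584) and limma-voom (0.0683), and it was kept with the block (0.00248). Over its alternatives the adjusted p ranged from 0.000118 to 0.152. Kcne4 lies at chr1:78816758-78820028 (plus strand).

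Kcnmb2, a beta subunit that inactivates the large-conductance calcium-activated potassium (BK) channel, fell from 1.78, 2.79 and 0.537 CPM to 0.0988, 0.111 and 0.0523 CPM. All 3 LPS libraries were under the floor of 3 counts, with 5 counts among them against 118 in control. The ratio of control to LPS was 19.2, with a 95% exact counting interval of 8.002 to 60.2. Kcnmb2 passed the count filter through its control libraries alone, so it could not have been called higher. The test called it lower (adjusted p = 0.0228), with losses of the call with limma-voom (0.0519) and without control replicate 1 or 2 or LPS replicate 1 or 2 (up to 0.0905; over all alternatives 0.000161 to 0.0905). It left the test where at least 10 counts were required in every library. Kcnmb2 lies at chr3:31902507-32200180 (plus strand). Its pore partner Kcnma1, the BK channel itself, was at 4.32, 3.85 and 2.23 CPM in control and 2.62, 1.78 and 1.26 CPM in LPS and was not called (adjusted p = 0.176; 0.0297 with the block, 0.0297 to 0.399 over all alternatives).

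The promoters of these auxiliary genes, which moved in opposite directions, each held 1 of the motifs, in capitals: an E-box 54 to 49 bases before the start of Kcne4 (chr1:78816661-78816960, plus strand) and a GAS motif 25 to 17 bases before that of Kcnmb2 (chr3:31902453-31902752, plus strand). Neither match overlapped another motif. With 7.15% and 8.30% of all promoters holding these letters, the matches are descriptions and not binding sites.
Kcne4: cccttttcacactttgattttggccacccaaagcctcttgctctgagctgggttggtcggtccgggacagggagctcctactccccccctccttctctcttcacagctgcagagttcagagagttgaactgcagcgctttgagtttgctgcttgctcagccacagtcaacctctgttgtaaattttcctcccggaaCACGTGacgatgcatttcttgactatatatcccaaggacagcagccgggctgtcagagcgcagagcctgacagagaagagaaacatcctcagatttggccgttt
Kcnmb2: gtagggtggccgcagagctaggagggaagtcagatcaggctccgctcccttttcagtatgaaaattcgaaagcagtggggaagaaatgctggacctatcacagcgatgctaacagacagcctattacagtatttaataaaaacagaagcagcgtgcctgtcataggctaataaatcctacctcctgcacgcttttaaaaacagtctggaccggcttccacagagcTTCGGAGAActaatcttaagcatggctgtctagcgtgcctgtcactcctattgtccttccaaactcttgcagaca

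In the K2P class, Kcnk5 (TASK-2, a background channel opened by alkaline pH) fell from 16.5, 14.9 and 12.8 CPM to 6.18, 5.85 and 9.68 CPM (log2 fold change -1.02, SE 0.23, adjusted p = 0.0374). It lies at chr14:20140057-20181809 (minus strand), and the call was lost without control replicate 1, 2 or 3 or LPS replicate 1 or 2 (up to 0.136; over all alternatives 0.000284 to 0.136). Its relative Kcnk3 (TASK-1, closed by acid) had 24.8, 33.3 and 8.10 CPM in control and 6.62, 7.13 and 6.23 CPM in LPS. The groups did not overlap, and Kcnk3 missed the threshold as fitted (adjusted p = 0.0698) but passed with the replicate block (0.0462), with DESeq2 (0.00485), without control replicate 3 (0.00365) and without both libraries numbered 3 (0.000161; over all alternatives 0.000161 to 0.204).

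Calcium channel subunits were called lower once among pores and once among beta subunits. Cacna1a, the pore of the P/Q-type channel of nerve terminals, fell from 17.4, 19.2 and 25.3 CPM to 8.70, 8.69 and 10.3 CPM (log2 fold change -1.16, SE 0.18, adjusted p = 0.0123). It was the single called gene with its highest control value in replicate 3, and its call was lost without control replicate 2 or LPS replicate 1 or 2 (up to 0.0635; over all alternatives 2.81e-06 to 0.0635). Cacnb4, a beta subunit that brings Cav pores to the membrane, fell from 3.39, 3.85 and 1.90 CPM to 0.939, 1.06 and 0.837 CPM (-1.68, SE 0.33, adjusted p = 0.0244), a call lost without control replicate 1 or 2 or LPS replicate 1 or 2 (up to 0.105; over all alternatives 0.000556 to 0.105). Cacna1a lies at chr8:84388440-84640246 (plus strand) and Cacnb4 at chr2:52428320-52676831 (minus strand), where A430018G15Rik covers 16.0% of its exon bases on the other strand. That gene had 0.703 to 1.19 CPM in control and 0.279 to 0.942 CPM in LPS, and reads of this pair cannot be told apart either.

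The T-type pores went apart in their values. Cacna1g had 36.4, 30.9 and 13.1 CPM in control and 12.3, 8.64 and 8.17 CPM in LPS (log2 fold change -1.46, adjusted p = 0.0608; 0.0198 with the block, 0.000471 to 0.190 over all alternatives). Cacna1h had 19.1, 21.0 and 13.5 CPM in control and 45.4, 61.4 and 11.6 CPM in LPS (1.14, adjusted p = 0.236; 0.131 with the block, 0.000524 to 0.542 over all alternatives), so it was higher in 2 pairs and lower in the third. Cacna1c, the L-type pore of smooth muscle, averaged 26.8 ± 2.87 CPM (control) and 18.2 ± 3.72 CPM (LPS; SD, n = 3; adjusted p = 0.0819). It passed as lower with upper-quartile factors (0.0417), library size alone (0.0342), DESeq2 (0.0337), without LPS replicate 3 (0.0166) and without both libraries numbered 3 (0.000551), with adjusted p up to 0.237 over all alternatives.

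Among sodium channel pores, Scn7a (Nax, an atypical channel of glia that senses extracellular sodium) fell from 10.2, 11.0 and 2.69 CPM to 0.840, 1.50 and 1.83 CPM (log2 fold change -2.52, SE 0.61, adjusted p = 0.0441). It lies at chr2:66673425-66784914 (minus strand). The ratio of LPS to control was 0.0823 and 0.136 in pairs 1 and 2 but 0.682 in pair 3, and the call was lost with the replicate block (adjusted p = 0.0546), with limma-voom (0.128) and without control replicate 1 or 2 or LPS replicate 1, 2 or 3 (up to 0.149; over all alternatives 0.000190 to 0.149). The voltage-gated pores Scn3a (6.99 ± 3.03 against 5.77 ± 1.85 CPM) and Scn9a (1.37 ± 0.437 against 1.45 ± 0.426 CPM; SD, n = 3) were not called.

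The libraries numbered 3 deviated together (r = 0.613 across genes). Numbers 1 and 2 were not told apart as pairs, since LPS 2 correlated with control 1 at 0.419 and with control 2 at 0.334. With this limit, the replicate number was also used as a block. It called 11 of the 109 genes higher and 21 lower, shares of 10.1% and 19.3% against 15.4% and 14.9% of all genes tested, and kept 10 of the 11 calls of the fit without it. Higher with the block were Kcne4 and also Cacnb3, Clcn7, Kcna3, Kcnf1, Kcnj15, Kcnk12, Kcnk2, Kcnn3, Kcnq5 and Trpc4ap. Lower with the block, beside 9 of the 10 genes above, were Ano1, Ano3, Cacna1g, Cacnb2, Kcnab1, Kcnj2, Kcnj4, Kcnk13, Kcnk3, Kcnma1, Kcnt2 and Trpm7. When both libraries numbered 3 were left out, 17 of 113 genes were higher (15.04%, against 22.6% of all genes tested) and 37 lower (32.7%, against 20.4%), and the 11 calls remained among them.

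Among the genes that gained a call with the block, Clcn7 and Trpm7 were abundant and had small changes. Clcn7 was at 149, 155 and 187 CPM in control and 195, 215 and 266 CPM in LPS, with no overlap (log2 fold change 0.46, adjusted p = 0.0966; 0.00878 with the block, 0.00232 to 0.265 over all alternatives). Trpm7 was at 154, 161 and 175 CPM in control and 130, 122 and 143 CPM in LPS (-0.31, adjusted p = 0.0715; 0.0226 with the block, 0.00697 to 0.221 over all alternatives). Kcnn3, the SK3 small-conductance calcium-activated potassium channel, was at 21.4, 23.2 and 10.2 CPM in control and 58.1, 61.2 and 17.2 CPM in LPS (1.32, adjusted p = 0.163; 0.0101 with the block, 2.51e-05 to 0.372 over all alternatives). For Clcn7 and Trpm7 the pairs were alike, while the ratio of Kcnn3 was 2.71, 2.64 and 1.68 in pairs 1, 2 and 3.

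A few genes differed by pair in size or direction. Kcnf1, a silent Kv subunit, had ratios of 6.26, 4.91 and 2.18 (adjusted p = 0.0785; 0.0163 with the block, 0.00211 to 0.221 over all alternatives). Kcnj15, the Kir4.2 inward rectifier, had ratios of 3.08, 3.05 and 1.07 (adjusted p = 0.350; 0.0467 with the block, 0.00136 to 0.636 over all alternatives). Trpm2, a cation channel gated by ADP-ribose, showed the reverse pattern, with ratios of 1.75, 1.47 and 7.22.

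**Figure D4:**
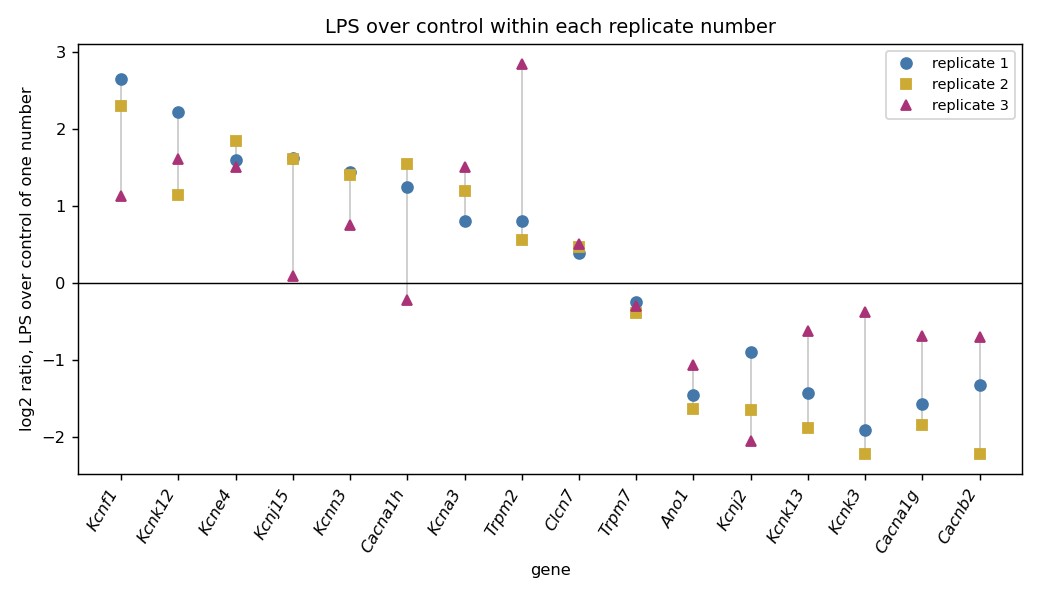
Log2 ratio of LPS to control within each replicate number for 16 genes named in the text; circles, squares and triangles are replicates 1, 2 and 3, and grey lines join the values of a gene. Replicate 3 lies near or below 0 for Kcnj15 and Cacna1h and far above the others for Trpm2, while Clcn7 and Trpm7 have 3 close values.

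Replicate 3 had lower channel levels in both groups. Control replicate 3 lay below both other control libraries in 79 of the 109 genes (72.5%), against 43.3% of all genes tested, and above both in 26 (23.9%, against 42.7%). LPS replicate 3 lay below in 64 (58.7%, against 42.5%) and above in 38 (34.9%, against 44.1%). Within each group these libraries had the highest sums of macrophage, endothelial and epithelial markers. Their sums of neuron, smooth muscle, interstitial cell (including Ano1) and glial markers were the lowest, though barely so for glia in LPS. What these cells contributed was not tested.

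Channels known from macrophages were among those high in replicate 3. Kcnn4 (KCa3.1, an intermediate-conductance calcium-activated potassium channel) had 3.64, 5.84 and 31.5 CPM in control and 1.98, 2.51 and 27.7 CPM in LPS. Kcnk13 (THIK-1) had 7.46, 10.0 and 25.2 CPM in control and 2.77, 2.73 and 16.4 CPM in LPS, and Kcnk6 (TWIK-2) had 12.0, 16.3 and 29.9 CPM in control and 5.63, 8.02 and 28.0 CPM in LPS. In each of these genes replicate 3 exceeded the others, and LPS was below control in all 3 pairs.

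No gene of this group was called. Without both libraries numbered 3, Kcnn4 (adjusted p = 0.0296; over all alternatives 0.0296 to 0.967), Kcnk6 (0.0102; 0.0102 to 0.990), Kcnk13 (0.00127; 0.00127 to 0.871) and Kcnj2 (Kir2.1; 0.00493; 0.00417 to 0.183) passed as lower. Kcnk13 (0.0318) and Kcnj2 (0.0176) also passed with the block, and Kcnj2 with upper-quartile factors (0.0424), library size alone (0.0354) and DESeq2 (0.00417). Kcnj2 had 7.80, 9.30 and 21.0 CPM in control and 4.20, 2.95 and 5.08 CPM in LPS, without overlap. Trpv2, a calcium-permeable channel of macrophages and other cells, had 31.5, 38.3 and 62.8 CPM in control and 25.0, 35.2 and 65.2 CPM in LPS, with overlapping groups. Trpm2 reached 23.0 CPM in LPS replicate 3, against 1.36 to 3.18 CPM in the other 5 libraries.

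**Figure D5:**
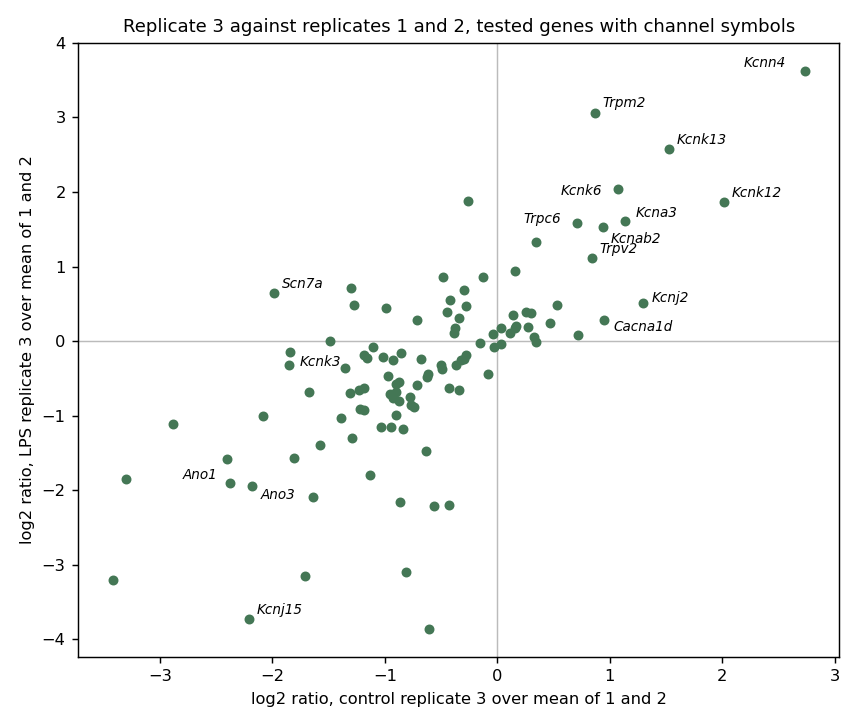
For each of the 109 tested genes, the log2 ratio of replicate 3 to the mean of replicates 1 and 2 in control (x axis) and in LPS (y axis). More points lie left of 0 than right of it, and Kcnn4, Trpm2, Kcnk13, Kcnk6, Kcnk12, Kcna3, Kcnab2 and Trpv2 lie above 0 on both axes.

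Channels of muscle and pacemaker cells were mostly lower in LPS but not called, beside the fall of the smooth muscle markers and of Kit, the receptor that defines interstitial cells. Ano1 had 91.1, 80.1 and 16.4 CPM in control and 33.2, 25.9 and 7.90 CPM in LPS. Each pair went down, but control replicate 3 lay within the LPS range, and the log2 fold change of -1.49 (SE 0.76) was not called (adjusted p = 0.242) except with the block (0.00406) and without both libraries numbered 3 (0.000194), with adjusted p from 0.000194 to 0.490 over the 15 alternatives. Kit had 61.0, 79.9 and 18.4 CPM in control and 12.9, 13.5 and 10.1 CPM in LPS, while Etv1, the third marker of these cells, had 50.5, 43.6 and 33.3 CPM and 40.8, 39.0 and 32.6 CPM and was not called (adjusted p = 0.535). Kcnj8, the Kir6.1 pore of ATP-sensitive channels in vascular muscle, averaged 15.9 ± 6.69 CPM (control) and 8.77 ± 1.80 CPM (LPS; SD, n = 3; adjusted p = 0.175, 0.000131 to 0.420 over all alternatives).

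Kcnmb1, the BK beta subunit typical of smooth muscle, was higher in LPS in pairs 1 and 2 and lower in pair 3, at 3.22, 3.81 and 2.60 CPM in control and 5.19, 5.91 and 1.20 CPM in LPS (adjusted p = 0.716). It passed as higher without both libraries numbered 3 (0.0343), with adjusted p from 0.0343 to 0.999 over all alternatives. Trpc6 averaged 3.15 ± 0.973 CPM (control) and 1.77 ± 1.26 CPM (LPS; SD, n = 3) and was not called (adjusted p = 0.348, 0.0190 to 0.593 over all alternatives), but passed as lower without LPS replicate 3 (0.0492) and without both libraries numbered 3 (0.0190). The part of cell composition in these values was not tested.

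The Kir channels known from glia were scarce. Kcna1 and Kcna2, which the list used here also counted as channels of glia, averaged 47.3 and 42.9 CPM in control and fell, as given above. Kcnj10 had 1.53, 1.24 and 2.27 CPM in control and 0.988, 1.39 and 1.26 CPM in LPS, with overlapping groups (log2 fold change -0.47, SE 0.31, adjusted p = 0.348). Its usual partner Kcnj16 (Kir5.1) did not exceed 0.0827 CPM in any library, which is under the floor, and it was not tested. Thus Ano1, of the pair of genes given as landmarks for the set, was abundant in 2 of 3 control libraries, and Kcnj10 was low in every library.

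Other ClC and TRP genes had no call. Clcn4-2 had 116 ± 5.52 CPM in control and 115 ± 5.38 CPM in LPS, Clcn3 42.3 ± 5.71 and 42.4 ± 3.32 CPM, and Clcn6 31.7 ± 2.74 and 34.5 ± 0.342 CPM (SD, n = 3). The groups differed by less than the larger SD in Clcn4-2 and Clcn3 and by about as much in Clcn6. Trpa1, an irritant receptor of sensory nerves, averaged 0.727 ± 0.431 CPM (control) and 1.10 ± 0.432 CPM (LPS; SD, n = 3), and Trpv4, an osmosensitive channel, 5.36 ± 0.299 and 2.78 ± 1.05 CPM with no overlap (adjusted p = 0.0780, 0.00278 to 0.227 over all alternatives).

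Genes that pass or drive the same ions without matching the symbols were read from a separate list. Of 19 testable genes of calcium entry and release, 3 rose and 7 fell, where 9.09% and 6.71% of all genes tested did so. Orai2, a pore of store-operated calcium entry, rose from 19.2, 18.6 and 22.3 CPM to 56.8, 58.1 and 76.3 CPM (log2 fold change 1.67, SE 0.15, adjusted p = 0.00240), and its sensor Stim2 and the endolysosomal channel Mcoln2 rose too. The falls were the release channels Itpr1, Itpr3 and Ryr3, the mechanosensitive Piezo2 (from 111 ± 4.39 to 43.3 ± 21.1 CPM; SD, n = 3), the endolysosomal Tpcn1 and Mcoln3, and Pkd1. Ryr3 had 31, 33 and 15 counts in control and 5, 1 and 2 in LPS. It passed the count filter through control alone, so it could not have been called higher.

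Lrrc8d, a subunit of the volume-regulated anion channel, rose (log2 fold change 1.30) and Lrrc8b, another one, fell (-0.49) among 12 testable chloride channel genes. Hvcn1, the voltage-gated proton channel, rose (0.68) and the lysosomal Tmem175 fell (-0.46) among 10 genes of sodium leak, proton and acid-gated currents. Lrrc55, a gamma subunit of BK channels, rose (1.48) among 11 partners. Slc12a5 (KCC2, which exports chloride) rose (1.84) among 11 pumps and cotransporters. Together these lists held 63 testable genes, of which 7 rose (11.1%, against 9.09% of all genes tested) and 10 fell (15.9%, against 6.71%). With the replicate block 12 were higher and 16 lower, where 15.4% and 14.9% of all genes tested were called.

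The 75 genes that were not tested reached at most 2.23 CPM in a library. That value was Kcng2, a silent Kv subunit, in LPS replicate 2, against 0.212, 0.133 and 0.0827 CPM in control. Kcnip1, a Kv4 partner, had 0.0847, 0.177 and 0.0827 CPM in control and 0.988, 1.06 and 0.0523 CPM in LPS, again with replicate 3 apart. For the 13 genes without a count, a level up to the floor of each library could not be detected at this depth.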

How the data were processed

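Poly(A) RNA of 3 control and 3 LPS libraries was analysed. The deposited values are raw counts per gene, made by the authors; their processing notes name cutadapt 1.15, Bowtie2 2.3.3.1, STAR 2.5.2b, SAMtools 1.5 and featureCounts 1.5.3 and the build GRCm38. The strand setting and the handling of reads with several alignments are not given in the sources used here. Genes with low counts were removed with filterByExpr (minimum count 10, minimum total 15), libraries were scaled with TMM factors of 0.918 to 1.08, and groups were compared with the two-sided quasi-likelihood F-test of edgeR 4.0.16 (R 4.3.3) with Benjamini-Hochberg adjustment over 15226 genes. CPM use TMM-corrected sizes; exon lengths and coordinates are from GENCODE on GRCm38. The SE is the absolute log2 fold change divided by the square root of F. Intervals and floors cover counting error only. The script was tested on simulated data.

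The genes and lists were chosen with earlier results of these data known. Named are the called genes, the 10 highest levels per kb, the most abundant gene of each class, Ano1 and Kcnj10, channels known from single cell types, and further genes chosen after their values were seen, including those that differed by pair. A few genes of the tests, counts and figures are not reported here by themselves. Deviations from group means correlated between control and LPS libraries numbered 1, 2 and 3 at r = 0.513, 0.334 and 0.613 across genes, all over 0.1, so the numbers were taken as pairs from the data. Control 1 with LPS 2 (0.419) and control 2 with LPS 1 (0.323) correlated about as well, so that numbers 1 and 2 were not told apart and only number 3 stood apart; the labels do not say what they stand for. Alternatives were other scalings, filters, DESeq2 1.42.0, limma-voom (limma 3.58.1), the replicate block, leaving out each library, and leaving out both libraries numbered 3.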

Additional observations from a re-analysis of the deposited data

How the results depend on the processing

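With 3 libraries a group, the number of called genes depended on the method and on single libraries, and the causes were not tested. Channel genes called higher (1 as reported) numbered 2 with RLE factors, 0 with limma-voom, library size alone and upper-quartile factors, 5 with DESeq2, 11 with the replicate block, 17 without both libraries numbered 3, and 0 to 9 with 1 library left out. Those called lower (10) numbered 16 with upper-quartile factors, 18 with library size alone, 19 with DESeq2, 6 with limma-voom, 21 with the block, 37 without both libraries numbered 3, and 1 to 16 with 1 library left out. The low counts came without control replicate 1 (3 lower), control replicate 2 (1), LPS replicate 1 (2) and LPS replicate 2 (1), and the higher ones without control replicate 3 (16 lower) and LPS replicate 3 (9 higher). Of all genes tested, 6.90% were higher and 10.4% lower with upper-quartile factors, and 6.48% and 13.5% with library size alone. The shares were 13.7% and 11.0% with DESeq2, 8.21% and 6.05% with limma-voom, and 15.4% and 14.9% with the block. Without both libraries numbered 3 they were 22.6% and 20.4%. At an unadjusted p under 0.05, 29 of 109 genes passed as reported, where 32.1% of all genes tested did. Under the upper-quartile and library-size scalings 35 and 38 passed, with DESeq2 39, with limma-voom 27 and with the block 53. Without both libraries numbered 3, 61 of 113 passed.

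Over all genes, those called higher (1384) numbered 2079 with DESeq2, 2343 with the block, 3498 without both libraries numbered 3, and 379 to 1964 with 1 library left out. Those called lower (1022) numbered 1589 with upper-quartile factors, 2054 with library size alone, 1673 with DESeq2, 2273 with the block, 3159 without both libraries numbered 3, and 112 to 1426 with 1 left out. The higher share of all calls was 57.5% with TMM, 32.4% with library size alone and 39.8% with upper-quartile factors. The related genes outside the symbols (17) numbered 28 with the block, 40 without both libraries numbered 3 and 2 to 23 with 1 left out. Classes with a call (6) numbered 10 with library size alone, 11 with DESeq2, 10 with the block, 15 without both libraries numbered 3 and 1 to 10 with 1 left out.

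Of 658 values of 44 named genes, 534 kept direction and side of the threshold, 50 lost the call, 49 gained one and 25 changed sign. The sign changes concerned uncalled genes: Cacna1b (-0.054 with upper-quartile factors, -0.11 with library size), Scn9a (-0.014 and -0.068) and Clcn4-2 (0.0092 with RLE factors, 0.0091 with DESeq2, 0.0184 without both libraries numbered 3). With 1 library left out the log2 fold change ranged from -0.14 to 0.26 for Cacna1b, -0.045 to 0.048 for Clcn4-2, -0.25 to 0.86 for Kcnab2, -0.0017 to 0.79 for Kcnmb1, -2.61 to 1.19 for Kcnn4, -0.17 to 0.25 for Scn9a, -0.31 to 0.23 for Trpc1 and -0.56 to 0.27 for Trpv2. Among the tested channel genes, the replicate block changed no call beside those named in the report. At this depth, genes of a few CPM, such as Kcnmb2, limit what can be told of a fold.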
